A study of Mytilus coruscus with 2 samples.

Results

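Genes of the ubiquitin, SUMO and TRIM systems were examined among the Nrf2 ChIP-seq peaks of the digestive gland of the thick shell mussel *Mytilus coruscus*. Members were the peaks whose nearest gene carried, in its Swiss-Prot or KEGG name, the word ubiquitin, tripartite motif, SUMO, sentrin, cullin, F-box, kelch-like or proteasome. The rule found 161 of 3465 peaks and 130 of 2548 nearest genes. The measured values of the peaks were not used by the rule.

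The series held 1 library of immunoprecipitated DNA (labelled ChIP-DNA) and 1 input library, both from digestive gland cells of healthy mussels kept in seawater with no treatment named in the labels. The labels leave the antibody unnamed, and the study's own text gives Nrf2 as the target. How many animals were pooled is not given in the sources used here. With 1 library per arm there are no replicates, so no comparison was tested. Intervals cover counting error of the fragments or peaks only, and amplified fragments and neighbouring peaks are not independent.

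Ubiquitin is a small protein that is attached to other proteins by a chain of activating (E1), conjugating (E2) and ligase (E3) enzymes, taken off again by deubiquitinating proteases, and read by the proteasome, which degrades many tagged proteins. SUMO is a related tag with ligases and proteases (sentrin-specific proteases, SENPs) of its own. TRIM (tripartite motif) proteins are mostly E3 ligases with RING, B-box and coiled-coil parts, and the family is large in bivalves. In vertebrates Nrf2, a transcription factor of the oxidative stress response, is itself ubiquitinated by a cullin-3 ligase whose adaptor is the kelch-like protein Keap1, and is then degraded by the proteasome.

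For each peak the deposited table gives the pileup (the number of ChIP fragments over the summit), the fold enrichment over the local input background, and −log10 q. The fold is (pileup + 1) divided by (background + 1). The denominator was computed back from pileup and fold and is called the input background here. The 130 genes comprised 67 ligase genes with 83 peaks, 28 adaptor and scaffold genes with 30 peaks, 20 genes of removing proteases with 23 peaks, 9 proteasome genes with 18 peaks, 3 conjugating enzyme genes with 3 peaks and 3 other genes with 4 peaks. No activating enzyme was among them.

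Member peaks were of ordinary height for this library. Their median fold was 4.39 (95% interval 4.12 to 4.81, range 1.94 to 33.9), against 4.63 over all peaks (4.59 to 4.68). The median pileup was 17 fragments in member peaks (8 to 274) and 16 over all peaks, and the median input background was 3.67 fragments in member peaks and 3.26 over all peaks. Member peaks had a median length of 303 bp, against 311 bp over all peaks, and a median −log10 q of 4.52, against 4.72 over all peaks. Of the 161 fold intervals, 126 included the median of all peaks, 10 lay above it and 25 below it. The same count was not made over all peaks, so this split has no background. A fold of at least 8 was reached by 5 member peaks, or 3.11% (Wilson 95% interval 1.33 to 7.06%), beside 6.18% of all peaks.

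**Figure D1:**
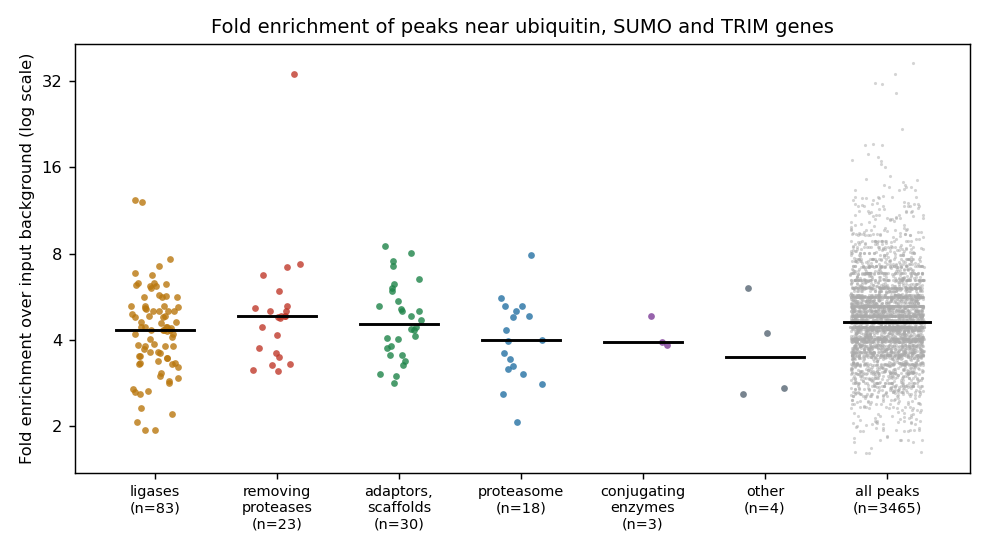
Fold enrichment over input background (vertical, log scale) of every peak in each functional group and, at the right, of all 3465 peaks. Points are peaks and bars are medians. The medians of the 6 groups lie between 3.48 and 4.84, the median of all peaks is 4.63, and 1 removing-protease peak stands at 33.9.

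The highest member peak was in an intron of M.coruscus_chr4_0789, a gene named sentrin-specific protease 1 (SENP1, a protease that matures SUMO and takes it off its targets) by both databases. Its predicted protein carries both the Ulp1 protease domain of the SENP family and a B-box zinc finger. The matches behind the name had E values of 2e-14 in Swiss-Prot and 6e-17 in KEGG, and the TrEMBL match is an uncharacterized protein. Both E values miss the cutoff set as an alternative below, under which this peak is not a member. The peak lay on chromosome 4 from 31643745 to 31645278, 7042 bp downstream of the annotated transcription start site (TSS), in the authors' assembly, which is unpublished. It had 274 fragments (exact Poisson interval 243 to 308) over an input background of 8.12, a 33.9-fold enrichment (30.0 to 38.1), and ranked second of all 3465 peaks. At 1534 bp it was also much longer than the median member peak. The next member peak in height was 12.3-fold.

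The other SENP genes stayed near the general level. There were 8 SENP genes with 1 peak each, with a median of 4.83-fold, and 7 of the 8 lay between 3.27- and 5.24-fold. M.coruscus_chr9_2680, named SENP6 (which trims SUMO chains) by both databases, had an intron peak with 24 fragments, 4.76-fold. M.coruscus_chr7_2416, a SENP2 match in KEGG alone, had 61 fragments but over an input background of 18.8, so that its fold was 3.30. The genes M.coruscus_chr8_1433, M.coruscus_chr5_1151, M.coruscus_chr3_2914 and M.coruscus_chr1_1582, at 5.24-, 4.84-, 4.83- and 3.27-fold, matched 1 and the same uncharacterized KEGG entry assigned to SENP1, had no Swiss-Prot match and are uncertain SENPs. M.coruscus_chr2_3372 at 5.05-fold is named a dephospho-CoA kinase domain protein by both databases and carries the SENP name only through its KEGG group. None of the genes named by KEGG alone, the SENP2 match among them, carried the Ulp1 domain. Of 6 steps of the SUMO pathway, 2 were found by name, the SENPs and the SUMO ligase RanBP2. This count is given without a background share of the genome's genes. RanBP2 (M.coruscus_chr5_2316, a KEGG match alone with an E value of 9e-08) had 8 fragments and 3.63-fold, beyond the far end of the gene. No peak had SUMO itself, its activating enzyme SAE1/UBA2, its conjugating enzyme UBC9 or a PIAS ligase as nearest gene.

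Among the proteases that remove ubiquitin, 12 genes had 15 peaks with a median of 4.84-fold (range 3.12 to 7.34). The gene for USP8 (M.coruscus_chr11_2176, a deubiquitinase of endosomal sorting in mammals) held 3 intron peaks in a row, 34155, 34643 and 35542 bp downstream of the TSS, with 39, 21 and 18 fragments and folds of 7.34, 5.91 and 4.17. Adjacent summits were less than 1 kb apart. The gene for VCIP135 (M.coruscus_chr6_0910, a partner of the ATPase p97 in Golgi assembly) had an intron peak of 19 fragments at 7.20-fold. USP3 (M.coruscus_chr8_1761, which acts on histones in mammals) had intron peaks of 4.84- and 3.75-fold and USP20 (M.coruscus_chr2_1231) 1 of 5.18-fold. The hydrolase M.coruscus_chr4_0215, UCHL in Swiss-Prot and UCHL3 in KEGG, had 1 of 5.05-fold. At the lower end stood USP24 (M.coruscus_chr1_1119) with 3.13-fold and USP2 (M.coruscus_chr5_2771) with 3.12-fold. M.coruscus_chr10_1393 at 6.76-fold matched a plant hydrolase weakly in Swiss-Prot, while KEGG names it a hedgehog-interacting protein. Its InterPro text holds a ubiquitin carboxyl-terminal hydrolase domain. Of the 23 peaks of removing proteases, SENPs included, 16 were in introns (69.6%, 49.1 to 84.4%), beside 44.9% of all peaks. A further 6 were intergenic (26.1%, 12.5 to 46.5%), beside 40.5% of all peaks, and 1 was in an exon, beside 5.25%. The promoter classes held 0, with an interval of 0 to 14.3% that included the 7.24% of all peaks.

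Ligases were the largest group, with a median of 4.35-fold (3.87 to 4.80). They divided into 31 TRIM genes with 32 peaks, median 4.82-fold (3.60 to 5.24), and 36 other ligase genes with 51 peaks, median 4.18-fold (3.82 to 4.43). The intervals of the medians overlapped. By KEGG orthologue, 12 TRIM genes were assigned to TRIM2/3, 8 to TRIM56, 7 to TRIM71 and 3 to TRIM33, and 1 to an RNA polymerase subunit. The database names often disagreed within this family. M.coruscus_chr3_1318, for instance, is TRIM2 in Swiss-Prot and belongs to the TRIM56 group in KEGG, and 3 genes shared 1 oyster entry. Reads from such similar genes can be hard to place, and the study kept uniquely mapped reads.

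The highest TRIM peak belonged to M.coruscus_chr13_0074, TRIM33 in Swiss-Prot and TRIM71 in KEGG (TRIM33 is a chromatin-binding regulator of TGF-beta signalling and TRIM71 an RNA-binding regulator of stem cells in mammals). It lay on chromosome 13 from 3377145 to 3377350, in the downstream class 60682 bp beyond the TSS, and had 44 fragments over a background of 3.67, a 12.3-fold enrichment (8.99 to 16.4). It ranked 37 of all peaks. Its neighbour M.coruscus_chr13_0072, also of the TRIM family, had a peak of 11 fragments and 4.84-fold, 99492 bp away. Next came M.coruscus_chr5_1269 (TRIM45 in Swiss-Prot) with 6.32-fold, M.coruscus_chr2_0024 (TRIM3 in Swiss-Prot) with 6.23-fold and M.coruscus_chr9_2473 (TRIM33 in Swiss-Prot) with 6.15-fold. At the other end, M.coruscus_chr14_0354, a TRIM56 match in KEGG alone, had 177 fragments over the highest background of any member, 91.7, and a fold of 1.94. M.coruscus_chr7_2714 and M.coruscus_chr10_1954 were similar, with 99 and 49 fragments, backgrounds of 45.5 and 24.1, and folds of 2.20 and 2.07. These are tall pileups where the input was tall as well.

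TRIM peaks and the peaks of the other ligases were divided differently among the region classes. Of the 32 TRIM peaks, 21 were intergenic (65.6%, 48.3 to 79.6%), 6 in introns (18.8%, 8.89 to 35.3%), 3 in promoters, 1 in an exon and 1 downstream. Of the 51 peaks of other ligases, 33 were in introns (64.7%, 51.0 to 76.4%), 17 intergenic (33.3%, 22.0 to 47.0%), 1 in an exon and 0 in a promoter. Over all peaks, 40.5% were intergenic, 44.9% in introns and 7.24% in promoters. The difference was not tested, and gene length, which sets how much intron a gene has to hold a peak, is not in the table. Naming went with region class too, as every TRIM peak of a gene named by KEGG alone was intergenic. Of all member peaks named by KEGG alone, 69.2% were intergenic, against 34.5% of those named by both databases. The part of naming in the difference was not tested.

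**Figure D2:**
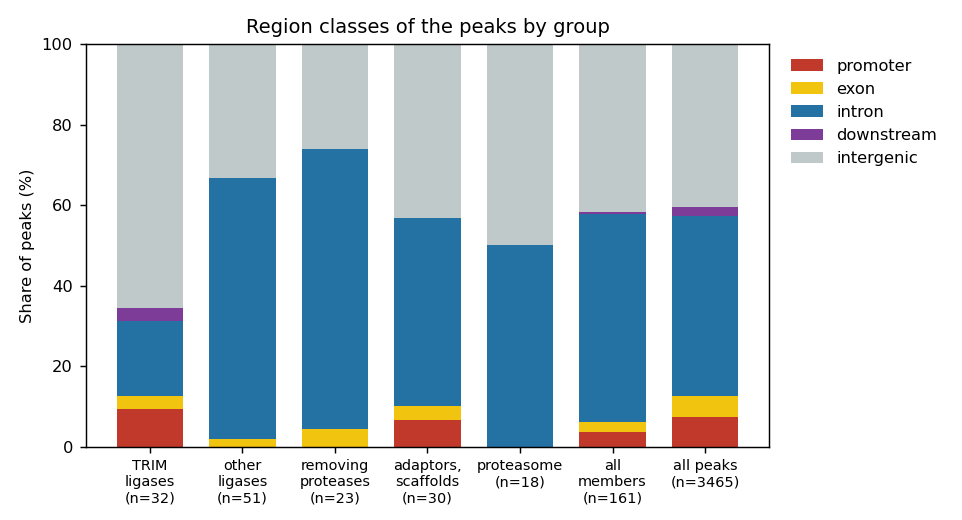
Share of peaks in each region class (vertical, percent) for TRIM ligases, other ligases, removing proteases, adaptors and scaffolds, proteasome genes, all 161 members and all 3465 peaks. The intron share is 18.8% in TRIM ligases and 64.7% in other ligases, beside 44.9% over all peaks.

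Among the other ligases the gene M.coruscus_chr7_2887, RNF215 in Swiss-Prot and ZNRF3 in KEGG (ZNRF3 is a membrane ligase that removes Wnt receptors in vertebrates), held 3 intron peaks. The highest, on chromosome 7 from 123487577 to 123488024, had 29 fragments over the lowest background level and a 12.1-fold enrichment (8.23 to 17.2). The others had 27 and 13 fragments, 7.63- and 5.64-fold, so that every peak of this gene was above the median of all peaks, though the interval of the lowest, 3.19 to 9.36, included it. MYLIP (M.coruscus_chr5_2901, a ligase of lipoprotein receptors in mammals) had an intergenic peak of 45 fragments at 7.26-fold, 12638 bp upstream. The peak upstream of M.coruscus_chr12_2045, at 6.85-fold, belongs to a gene named RFWD3 by KEGG and a seminal clotting protein by Swiss-Prot. TRIP12 (M.coruscus_chr3_3281, a HECT-type ligase) had intron peaks of 6.75- and 5.04-fold. M.coruscus_chr14_0571, a weak match to MARCH6 (a ligase of the endoplasmic reticulum) in KEGG alone, had upstream peaks of 5.64- and 4.43-fold and is uncertain. COP1 (RFWD2), a ligase of transcription factors, was named for 2 genes, with 4.81-fold in an intron of M.coruscus_chr2_0422 and 2.59-fold upstream of M.coruscus_chr8_1881. The name of M.coruscus_chr8_1881 is uncertain, with E values of 1e-10 and 8e-10 and a TrEMBL match to ubiquitin-conjugating enzyme E2 Q2. HERC1 (M.coruscus_chr8_0686, a very large HECT-type ligase) had an intron peak of 4.18-fold. A further 2 genes carried a HERC name in 1 database, M.coruscus_chr8_0840 (HERC2 in Swiss-Prot, MIB2 in KEGG) with 6.29-fold and M.coruscus_chr2_2389 (HERC1 in KEGG, a LINE-1 reverse transcriptase in Swiss-Prot) with 4.63-fold. ARIH1 (M.coruscus_chr8_0847, a partner of cullin ligases) had 4.91-fold, UBE3B (M.coruscus_chr7_2410) 4.84-fold and RNF123 (M.coruscus_chr1_3837) 4.32-fold. MIB2 (M.coruscus_chr13_0054, a ligase of Notch ligands) had 4.03-fold and HACE1 (M.coruscus_chr9_2636, which targets the GTPase Rac) 3.47-fold. RNF185 (M.coruscus_chr7_0557) had 2.94-fold and RNF144A (M.coruscus_chr1_0556) 2.82-fold.

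The G2E3 and RNF213 families had lower median folds than the TRIM ligases at 4.82 and the HERC genes at 4.63. Low folds were not confined to them, as TRIM peaks went down to 1.94-fold. The G2E3 family (HECT-type ligases named for a cell-cycle-specific human protein) had 7 genes and 10 peaks, 9 in introns and 1 in an exon, with a median of 3.58-fold over a median background of 7.67. The highest was M.coruscus_chr6_2645 with 49 fragments and 6.16-fold, a gene whose predicted protein holds a HECT domain together with an Ulp1 protease domain and whose KEGG name is a calcium-responsive transcription factor. The lowest were the pair of M.coruscus_chr13_0084, with 68 and 57 fragments, backgrounds of 25.9 and 25.0 and folds of 2.66 and 2.32. RNF213, a giant ATPase and ligase, was named for 3 genes with 6 peaks, 5 of them intergenic, with a median of 3.26-fold over a median background of 9.90. M.coruscus_chr11_0001 accounted for 4 of these, 5446 to 87772 bp upstream, with 31, 58, 33 and 58 fragments and folds of 4.43, 1.94, 2.71 and 2.64. The RNF213 genes M.coruscus_chr5_2787 and M.coruscus_chr5_2793 had 4.09- and 3.82-fold, each over a background of 3.67. A low fold is called a peak only where fragments are many, so low folds come with high background among called peaks. The part of the background in the low medians was not tested. Over all peaks, 44.9% were in introns and 40.5% intergenic.

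**Figure D3:**
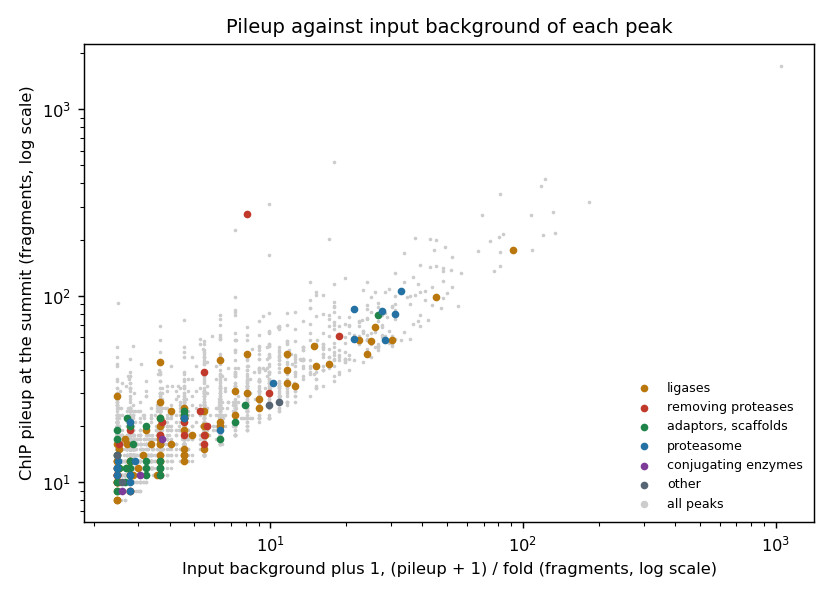
ChIP pileup at the summit against the input background of each peak as defined above, 1 included (both in fragments, log scales), with members coloured by group over all peaks in grey. The SENP1 peak stands apart at 274 fragments over 8.12, and the members at the far right are TRIM, RNF213 and proteasome-named peaks with folds between 1.94 and 3.24.

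Adaptors and scaffolds, which bring substrates to ligases, had a median of 4.56-fold (4.03 to 5.26). F-box proteins, the substrate receptors of SCF ligases, had 13 genes and 14 peaks, median 4.64-fold. FBXO7 (M.coruscus_chr1_3790, which also binds a proteasome regulator in mammals) had an upstream peak of 20 fragments at 7.56-fold. FBXO9 (M.coruscus_chr12_1944) had 6.05-fold and FBXL4 (M.coruscus_chr2_2394, a mitochondrial F-box protein) 5.92-fold, both in introns. The lowest were FBXO31 (M.coruscus_chr11_2193) at 3.04-fold and an F-box/LRR-repeat gene, M.coruscus_chr1_3429, at 2.84-fold. The highest of the set at 8.51-fold, upstream of M.coruscus_chr4_1378, is LIMCH1 in Swiss-Prot, an actin-linked LIM protein, and an F-box protein only by the KEGG group of its LMO7 match.

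Kelch-like proteins, adaptors of cullin-3 ligases and the family of Keap1, had 9 genes and 10 peaks with a median of 4.04-fold (3.27 to 6.27). M.coruscus_chr9_2719, KLHL35 in Swiss-Prot and KLHL24 by the closer KEGG match, had 20 fragments and 6.54-fold, 4657 bp upstream. KLHL10 (M.coruscus_chr2_3129, known from spermatids in mammals) had intron peaks of 6.27- and 4.05-fold. M.coruscus_chr5_0118, KLHL17 in Swiss-Prot and KLHL24 by the closer KEGG match, had 79 fragments over a background of 26.8, and 2.99-fold. Of the cullins, the one gene named cullin-9 (M.coruscus_chr4_0347, a KEGG match alone) had an intron peak of 19 fragments over the lowest background level at 8.06-fold (5.01 to 12.4), 15728 bp from the TSS. The cullin-4A entry was the KEGG match of 5 genes that Swiss-Prot names heat shock protein 70 family members 12A or 12B, with folds of 7.26, 5.05, 5.04, 4.68 and 4.32. The 7.26-fold peak was in an intron of M.coruscus_chr4_0076. All 5 share that single entry, so these are counted by the word alone.

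Proteasome genes had the lowest median of the groups with over 10 peaks, 3.98-fold (3.16 to 5.03), and 7 of their 18 peaks belonged to 1 gene. That order did not hold with 1 peak per gene, the highest, where the median was 5.03 for proteasome genes, 4.84 for removing proteases, 4.76 for adaptors and scaffolds and 4.43 for ligases. Keeping the highest peak favours groups whose genes have several peaks, so this order is no separate result. At least 2 peaks were held by 44.4% of proteasome genes, 16.4% of ligase, 10% of removing-protease and 7.14% of adaptor and scaffold genes. Without the genes named as another protein, the proteasome median was 4.83. M.coruscus_chr1_3928 had these 7 intergenic peaks between 53057 and 66801 bp from its TSS, with 34 to 106 fragments over backgrounds of 10.2 to 33.0 and folds of 2.06 to 4.01. KEGG names it a proteasome beta subunit, Swiss-Prot a vitelline membrane outer layer protein. The 5 genes that both databases name as proteasome parts had 8 peaks, all in introns, with a median of 4.83-fold (3.16 to 7.92). Introns held 44.9% of all peaks. PSMD14 (M.coruscus_chr12_1691, the deubiquitinase of the lid) had peaks of 21 and 19 fragments, 7.92- and 3.16-fold. PSMD1 (M.coruscus_chr3_3150, a base scaffold) had 5.24- and 4.84-fold, and ADRM1 (M.coruscus_chr12_1955, a ubiquitin receptor) 5.03- and 4.82-fold. PSMC5 (M.coruscus_chr2_3227, a base ATPase) had 1 peak of 4.32-fold and PSMA2 (M.coruscus_chr2_1589, a core subunit) 1 of 3.60-fold with 9 fragments. Of 34 subunits of the core and the regulatory particle that were looked for, a list without ADRM1, 6 appeared by name, again with no background share of the genome's genes, and beta 1 and non-ATPase 10 of these rested on genes that 1 database names as another protein. For non-ATPase 10 these were the ankyrin repeat genes M.coruscus_chr14_1336, which Swiss-Prot names ankyrin-3, with 5.24-fold, and M.coruscus_chr6_1632 with 3.96-fold.

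**Figure D4:**
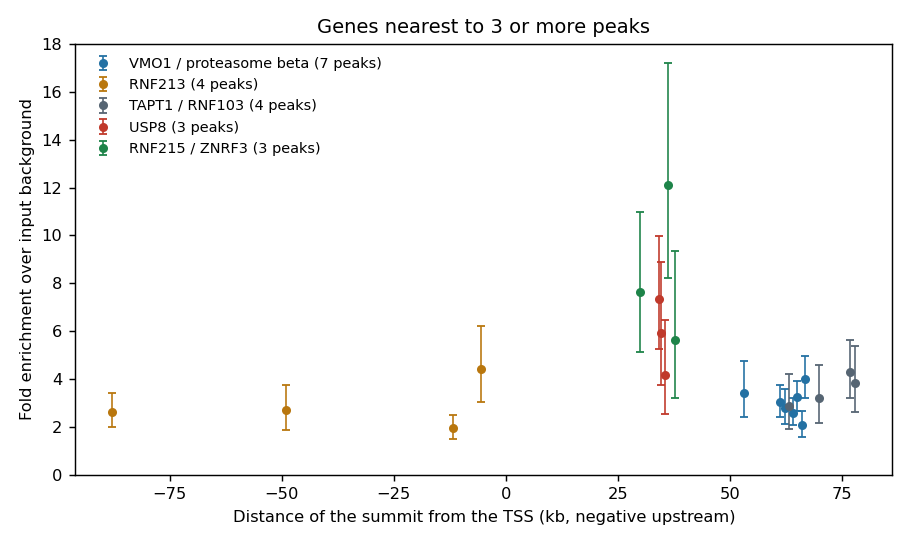
Fold enrichment (vertical) against the distance of the summit from the TSS (horizontal, kb, negative upstream) for the 5 member genes nearest to 3 or more peaks; bars are exact Poisson intervals of the pileup, counting error only. USP8 and RNF215/ZNRF3 reach 7.34- and 12.1-fold, and the 7 peaks of VMO1/proteasome beta stay between 2.06 and 4.01.

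Most member genes, 110 of 130, were nearest to 1 peak, 15 to 2, and 5 to 3 or more, so that 20 genes (15.4%) had at least 2 peaks, against 21.8% of all nearest genes. The 5 were the genes for USP8, RNF213 and RNF215/ZNRF3, the gene above with the proteasome beta match, and M.coruscus_chr8_0206. The last is named TAPT1 (a ciliary membrane protein) by Swiss-Prot and RNF103 by KEGG, and had 4 intron peaks of 25 to 49 fragments with folds of 2.89, 3.22, 3.82 and 4.28.

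Among conjugating enzymes, the E2 gene UBE2D1 (M.coruscus_chr7_0337) had 11 fragments at 3.95-fold with the summit 1 bp from the TSS. UBE2E1 (M.coruscus_chr14_0442) had an intron peak of 4.84-fold and an E2 of the UbcD6 type (M.coruscus_chr4_0457, known for DNA repair in other animals) an intergenic one of 3.85-fold. Of the other genes, UFM1 (M.coruscus_chr4_0949, a ubiquitin-like modifier) had 14 fragments and 6.05-fold, and the chain elongation factor UBE4B (M.coruscus_chr13_0024) 27 fragments and 2.60-fold. Girdin (M.coruscus_chr3_1110), an actin-binding protein matched to a ubiquitin fusion in KEGG, had 4.23- and 2.73-fold.

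Few member peaks lay at promoters. The promoter classes reach 3000 bp upstream and held 6 member peaks, 3.73% (1.72 to 7.89%), beside 7.24% of all peaks. Introns held 83, or 51.6% (43.9 to 59.1%), beside 44.9% of all peaks. Exons held 4, or 2.48% (0.970 to 6.21%), beside 5.25%, and the downstream class 1, or 0.62%, beside 2.14% of all peaks. Intergenic peaks numbered 67, or 41.6% (34.3 to 49.3%), beside 40.5% of all peaks, 35 of them upstream of the gene and 32 beyond its far end. The interval of each member share included the share over all peaks.

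Of the promoter peaks, 2 were within 1 kb of the start, UBE2D1 above and FBXO39 (M.coruscus_chr7_2889, an F-box protein), 320 bp upstream with 13 fragments and 4.36-fold (2.47 to 7.23). FBXO39 is 2 gene numbers from RNF215/ZNRF3, the closest summits being 65587 bp apart. The other 4 lay between 2907 and 2968 bp upstream, at the edge of the class, where 13 of the 80 peaks of the 3 kb class lay beyond 2900 bp. They belonged to M.coruscus_chr2_0024 (TRIM3-like, 19 fragments, 6.23-fold), M.coruscus_chr3_1318 (TRIM2-like, 12 fragments, 5.21-fold), M.coruscus_chr2_1984 (heat shock protein 70 12A by Swiss-Prot, 22 fragments, 5.05-fold) and M.coruscus_chr11_2254 (the TRIM71 relative wech, 19 fragments, 4.39-fold). A further 6 member peaks lay 3 to 5 kb upstream. The median distance from the TSS was 20466 bp in member peaks, against 15384 bp over all peaks, and for intron peaks alone 22453 bp in members, against 18842 bp over all peaks.

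**Figure D5:**
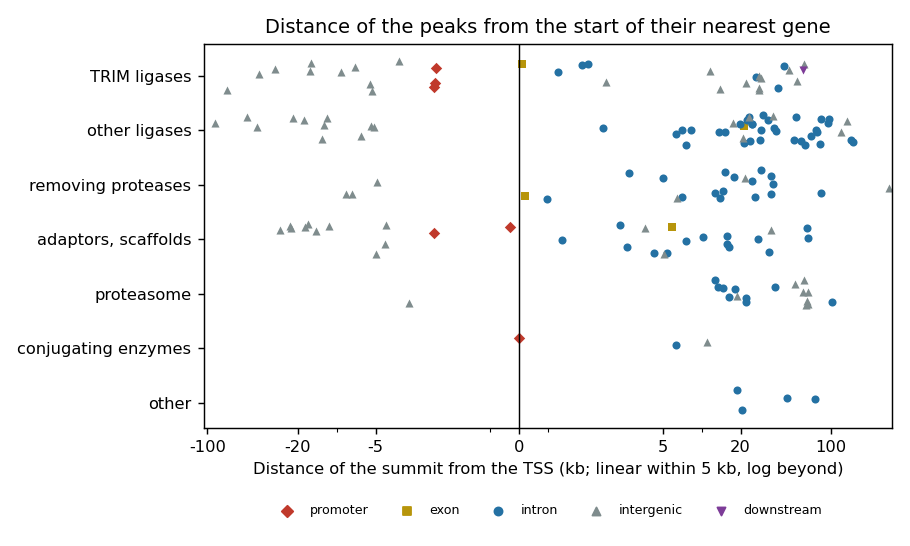
Distance of the summit of each of the 161 member peaks from the TSS of its nearest gene (horizontal, kb, linear within 5 kb and log beyond, negative upstream), by group from top to bottom; symbols give the region class. Only 6 promoter peaks are present, 4 of them at the 3 kb edge, and intron peaks of the other ligases spread past 100 kb.

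Of 16 components that act on the turnover of Nrf2 itself, either way, 2 were the nearest gene of a peak. The share of all genes of the genome with a peak was not analysed here, so this count is given without a background. Keap1, cullin-3, Rbx1, cullin-1, Skp1, beta-TrCP, synoviolin, DDB1, p62, VCP, CAND1, USP11, TRIM21 and RNF4 had none. Cullin-4 appeared only through the heat shock genes above. DCAF11 (WDR23, a receptor of cullin-4 ligases that targets Nrf2 in worms and mammals) had an intron peak in M.coruscus_chr5_0367, on chromosome 5 from 15000707 to 15001237, with 12 fragments and 5.24-fold, 21012 bp from the TSS. Its name holds none of the rule's words, so it is not counted among the 161. A component counted as without a peak is one whose name was carried by no nearest gene in the table.

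The lowest background level, 2.48, was shared by 30 member peaks, 18.6% (13.4 to 25.4%), beside 24.5% of all peaks, and at that level the fold depends on the pileup alone. A member peak of 8 fragments there is 3.63-fold and 1 of 12 fragments 5.24-fold, so that equal folds recur across genes. In the other direction, 23 member peaks (14.3%) lay in the tenth of all peaks with the highest background, over 10.8.

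Protein domains, which the rule did not use, were more frequent in genes named by both databases than in those named by KEGG alone or as another protein. InterPro text was present for 113 of the 130 member genes. At least 1 of 11 domains that occur in ubiquitin, SUMO or TRIM proteins was found in 79, of 118 among all 2548 nearest genes. Some of these domains also occur in other proteins, as BTB does in potassium channel genes outside the rule. At least 1 of the 11 was found in 56 of the 68 genes named by both databases, in 10 of the 12 with a related name, in 8 of the 25 named by KEGG alone and in 5 of the 25 that 1 database names as another protein. Whether the domain fitted the name was not counted. Names and domains both come from the same predicted protein. All 10 HECT genes, all 8 F-box genes and all 3 conjugating-enzyme genes in the table were members, as were 20 of 28 B-box genes, 15 of 26 RING genes, 12 of 16 ubiquitin hydrolase genes, 8 of 10 Kelch, 7 of 19 BTB, 4 of 6 Ulp1, 3 of 4 proteasome and 2 of 4 NHL genes. The median folds by naming were 4.33 for both databases, 4.64 for a related name, 4.43 for KEGG alone and 4.28 for another protein. Of peaks of genes named by KEGG alone, 69.2% were intergenic (50.0 to 83.5%), and 34.5% of those named by both (25.2 to 45.2%).

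Member peaks were found on all 14 chromosomes. Their share of the peaks ran from 2.17% on chromosome 6 (5 of 230) to 8.78% on chromosome 4 (18 of 205), which carries the SENP1 and cullin-9 peaks. In 13 pairs, member genes were within 10 gene numbers of each other, with no such count made for the other genes. One such pair is USP8 and the adjacent M.coruscus_chr11_2175, a MESD gene with a proteasome name in KEGG, whose peak of 13 fragments was 5.61-fold.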

How the data were processed

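ChIP-seq of *M. coruscus* digestive gland chromatin gave 1 Nrf2 ChIP library and 1 input library. Per the submitters' notes and the methods, trimming was done with Trimmomatic 0.36 and quality control with FastQC. Bowtie2 2.5.1 placed unique reads on an unpublished genome, and MACS3 3.0.0a7 called the peaks, with 1 ChIP library set against 1 input. In the deposited table the signal is the pileup at the summit, the fold enrichment is a ratio to the input background, and p and q are −log10 values. Region class, nearest gene and database names are the authors'. Read totals were not analysed here, so pileups give the depth. Positions are 1-based.

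The members and gene lists (Nrf2 turnover, SUMO pathway, proteasome subunits) were chosen with earlier results of these data known. Groups were assigned by name. Which genes 1 database names as another protein was settled after seeing the table. Named genes were those with a promoter peak, the 4 highest of each group, those with 3 or more peaks, list members, and those of lowest or highest background, and others were chosen after their values were seen.

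Medians carry order-statistic, shares Wilson and pileups exact Poisson 95% intervals (SciPy 1.17.1 and NumPy 2.4.6 under Python 3.11.15; tables with pandas 2.3.3, figures with Matplotlib 3.10.9), and the calculations were tested on simulated data. The fold interval divides the pileup interval plus 1 by the background and leaves out the error of the background. Alternatives changed the databases, the E value, the fold, the q and the promoter class. No sequence was printed, since the genome was not used here.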

Additional observations from a re-analysis of the deposited data

How the results depend on the processing

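Of 66 alternative values, 57 stayed within the set limits and 9 moved. For medians and shares the values that stayed lay inside the interval of the main value, and those that moved lay outside. Small groups have wide intervals, so staying within them is weak evidence of stability. The proteasome rise from 3.98 to 5.03 counted as staying (interval 3.16 to 5.03). The ligase rise from 4.35 to 4.82 counted as a move (interval 3.87 to 4.80). Counts of peaks stayed at 115 or more and moved at 101 or fewer. The number of member peaks depended on the naming and the cutoffs, with 92 from Swiss-Prot names alone, 84 with a word in both databases, 101 with a database match of at most 1e-20 and 99 at 4-fold or more, against 161. With −log10 q of at least 3 the median fold was 4.84 for all members, against 4.39, 5.37 for adaptors, against 4.56, and 4.82 for ligases, against 4.35. The promoter share was 1.24% for the 1 kb class alone, against 3.73%. The intron share was 64.4% with database matches of at most 1e-20, against 51.6%, and the cause of this move was not tested. The counts and the 1 kb share could not rise, since each alternative keeps a part of the peaks or of the promoter class. A q cutoff drops weakly enriched peaks, so the higher medians there are no separate result. The proteasome group, lowest of the 4 larger groups at 3.98-fold, was highest with 1 peak per gene at 5.03, a setting that favours genes with several peaks. An alternative without the genes named as another protein was added after seeing the data. No paired analysis was possible because each arm has 1 library and no test was made. The median pileup of 17 fragments limits the precision of single folds.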
